A study of Mus musculus with 12 samples.

Results

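Glutathione S-transferase genes were followed in the mouse liver line BNL CL.2 given iron, macrophages or both for 24 h. The 10 genes were chosen by name from the 18194 genes on the array: Gsta2, Gsta3, Gsta4, Gstm1, Gstm2, Gstm5, Gsto1, Gstt1, Mgst1 and Mgst2. They were taken as a family in which Gsta2 was already known to be the largest riser with iron, so their differences with iron are described here and not tested. All 16 of the 45101 probe sets that name exactly 1 of these genes were used, and where a gene had several, the one with the highest mean over the arrays stood for the gene. One further probe set names Gsta2 together with Gsta1 and Gm3776 and is given beside Gsta2.

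RNA was hybridised to 12 Affymetrix mouse arrays, 3 in each of 4 groups, and each deposited value is a log2 signal. In the group RAW_FAC, BNL CL.2 cells were cultured with RAW 264.7 cells, a mouse macrophage line, in an insert and with 100 micromolar FAC (ferric ammonium citrate, a soluble iron salt). The group FAC had the same iron dose with further BNL CL.2 cells in the insert, and the group RAW had the macrophages without iron. The group called alone had BNL CL.2 cells in the insert and no iron. All 4 groups shared the medium, DMEM with 10% FBS, and all came from 1 cell line, which limits them as a model of liver. Nothing in the labels says that replicates 1 to 3 were separate cultures, and the tests then measure only how far these samples differ, which may be technical. Arrays of the same replicate number deviated together from their group means, so differences are also given between arrays of equal number.

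The liver label was checked against hepatocyte markers. The liver transcription factor Hnf4a gave 10.2 to 10.7, Apob, an apolipoprotein of secreted lipoproteins, 11.1 to 12.4, and the fetal albumin relative Afp 8.30 to 9.71, all above the array medians of 5.63 to 5.68. Albumin (Alb) at 5.02 to 5.38 and the adult hepatocyte enzyme Cyp2e1 at 4.90 to 5.31 lay below those medians on every array, and 6 of the 12 hepatocyte markers found had means below them. Krt19, a keratin of biliary epithelium, gave 13.1 to 13.5. The other biliary markers found were lower: Krt7 at 7.90 to 8.57, Epcam at 6.56 to 6.89, Sox9 at 5.98 to 6.34 and Cftr at 3.69 to 4.99. Of the 5, 1 had a mean below the array medians. Of 13 macrophage markers, 9 had means below the array medians, among them Ptprc at 3.32 to 3.72 and Adgre1 at 4.74 to 5.21, while Cd14 gave 11.9 to 12.2.

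Glutathione S-transferases join the tripeptide glutathione to electrophilic compounds, which makes them more soluble and ready for export, and several members also reduce lipid peroxides. The cytosolic enzymes fall into classes such as alpha (Gsta genes), mu (Gstm genes), omega and theta, and the microsomal enzymes (Mgst genes) sit in membranes. They are abundant in liver, where the transcription factor NRF2, which binds antioxidant response elements, and the aryl hydrocarbon receptor, which binds xenobiotic response elements, are known regulators of several of them. Iron can catalyse the formation of radicals that oxidise lipids, and aldehydes from oxidised lipids are substrates of these enzymes.

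Promoter sequences from RefSeq (build GRCm38.p6, 250 bases before to 50 after each annotated start) were searched for the cores of both elements, TGACNNNGC and GCGTG, on both strands. A window was found for 9 of the 10 genes, 11 windows in all, and Gsta4 has none in the table used. TGACNNNGC occurred in 3 of the 11 windows, those of Gsta3, Gstm5 and the first of the Mgst1 windows, and in 12.4% of all 32851 promoter windows of that length. GCGTG occurred in 4 windows, those of Gsta2, Gstm5 and both overlapping windows of Gstm1, and in 32.4% of all windows. A match is a description of letters and not a site. Of the windows, 4 are printed as their 250 bases before the start, 5′ to 3′ on the strand of the gene, with matches in capitals, because Gsta2, Gsta3 and Mgst1 were higher with iron in every pair while Gstm5, which holds both motifs, was not. The Gsta2 stretch is chr9:78347146-78347395 on the minus strand, with GCGTG starting 7 bases before the annotated start. The other stretches are on the plus strand: Gsta3 at chr1:21240335-21240584, Mgst1 at chr6:138140277-138140526 and Gstm5 at chr3:107895604-107895853.
Gsta2: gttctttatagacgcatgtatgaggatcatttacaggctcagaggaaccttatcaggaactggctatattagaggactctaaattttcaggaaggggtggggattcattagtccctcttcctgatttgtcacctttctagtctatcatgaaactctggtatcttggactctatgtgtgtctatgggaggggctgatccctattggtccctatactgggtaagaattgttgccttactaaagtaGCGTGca
Gsta3: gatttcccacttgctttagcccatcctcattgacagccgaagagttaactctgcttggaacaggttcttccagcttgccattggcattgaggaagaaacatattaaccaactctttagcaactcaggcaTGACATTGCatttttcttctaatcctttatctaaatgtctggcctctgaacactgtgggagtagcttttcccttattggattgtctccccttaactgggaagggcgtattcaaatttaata
Mgst1: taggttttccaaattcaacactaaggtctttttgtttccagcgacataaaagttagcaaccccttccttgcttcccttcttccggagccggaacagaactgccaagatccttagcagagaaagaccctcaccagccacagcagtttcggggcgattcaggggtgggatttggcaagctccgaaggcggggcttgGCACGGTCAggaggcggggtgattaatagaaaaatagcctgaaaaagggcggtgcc
Gstm5: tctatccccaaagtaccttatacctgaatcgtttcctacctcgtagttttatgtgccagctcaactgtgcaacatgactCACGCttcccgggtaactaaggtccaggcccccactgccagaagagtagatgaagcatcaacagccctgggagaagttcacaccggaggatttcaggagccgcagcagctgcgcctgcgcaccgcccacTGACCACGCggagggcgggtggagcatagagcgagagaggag
In Gsta3 the capitals mark TGACNNNGC on the gene's strand, and in Mgst1 the same motif on the other strand. In Gstm5 they mark GCGTG on the other strand at 171 bases before the start and then TGACNNNGC at 42 bases before it, whose letters contain a second reverse GCGTG match. Gsta2, with the largest difference with iron, had no TGACNNNGC in its window, which says only that these letters are not in this window.

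With iron, 7 of the 10 genes were higher in all 6 same-number pairs: Gsta2, Gsta3, Gsta4, Gstm1, Gstm2, Mgst1 and Mgst2. Gsta2 was 1.98-fold higher on average and the other 6 between 1.23-fold and 1.35-fold. Gstm5, Gsto1 and Gstt1 had mean log2 differences of 0.03 to 0.05, with signs that differed between pairs. Of all 18194 genes, 4.14% were higher in all 6 pairs and 4.01% lower, and the family's count is not read against this, since it was chosen with iron differences known. The 6 pairs are FAC minus alone and RAW_FAC minus RAW at replicates 1 to 3. They share no array, but they come from 3 replicate numbers, and pairs of one number may not be independent. An SD over pairs therefore describes their spread only. In a bulk culture, a change in the number of expressing cells and a change in RNA per cell cannot be told apart.

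Gsta2 encodes an alpha class enzyme of liver. Its log2 signals at replicates 1 to 3 were 9.68, 11.23 and 10.51 in RAW_FAC and 9.92, 11.04 and 10.63 in FAC. They were 8.50, 10.25 and 9.91 in RAW and 8.26, 10.16 and 10.00 in alone. Replicate 1 was the lowest of its group in all 4 groups, and the highest arrays without iron lay above the lowest arrays with iron, so the groups overlapped. Within replicate numbers the order was the same each time, with the iron array above its partner. The log2 difference of FAC minus alone was 1.66, 0.88 and 0.63 at replicates 1 to 3, and that of RAW_FAC minus RAW was 1.17, 0.98 and 0.59. Their mean was 0.99 ± 0.40 (SD, n = 6 pairs), which ranked 1 of 18194 genes, as the choice of the family implies. The pairs of replicate 1 held the largest difference in both settings, and without them the mean was 0.77 ± 0.19 (SD, n = 4 pairs), or 1.71-fold.

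The probe set shared by Gsta2, Gsta1 and Gm3776 gave the same order. Its signals were 13.27, 13.95 and 13.74 in RAW_FAC and 13.35, 13.91 and 13.70 in FAC, against 12.26, 13.52 and 13.38 in RAW and 12.37, 13.51 and 13.39 in alone. Again replicate 1 was the lowest of its group in all 4 groups. The mean log2 difference with iron was 0.58, with a range of 0.31 to 1.01 over the 6 pairs. Which of the 3 genes gave this signal cannot be told apart, and the same holds in part for any probe set of closely similar family members.

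Mgst2, a membrane enzyme that can also make a cysteinyl leukotriene, gave 10.77, 11.57 and 11.11 in RAW_FAC and 10.89, 11.56 and 11.36 in FAC. It gave 10.10, 11.14 and 10.94 in RAW and 10.33, 11.24 and 11.06 in alone. The iron differences ran from 0.17 to 0.67 with a mean of 0.41 ± 0.18 (SD, n = 6 pairs), and were largest at replicate 1 in both settings. Mgst1, found in the endoplasmic reticulum and the outer mitochondrial membrane, gave 12.26, 12.82 and 12.53 in RAW_FAC and 12.35, 12.73 and 12.67 in FAC. It gave 11.92, 12.62 and 12.35 in RAW and 11.74, 12.51 and 12.39 in alone. Its mean iron difference was 0.31 ± 0.16 (SD, n = 6 pairs). A second Mgst1 probe set lay near the bottom of the scale, at 3.75 to 4.47, and differed by -0.03 on average, with 3 of 6 pairs above 0.

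Gsta4, which favours hydroxynonenal, an aldehyde product of lipid peroxidation, gave 13.58, 13.93 and 13.85 in RAW_FAC and 13.59, 13.93 and 13.87 in FAC. It gave 13.01, 13.66 and 13.65 in RAW and 13.17, 13.67 and 13.68 in alone. The difference was smaller than that of Gsta2, at 0.32 ± 0.15 (SD, n = 6 pairs), and at 0.23 ± 0.04 (SD, n = 4 pairs) without replicate 1. Gsta3, whose mouse enzyme conjugates activated aflatoxin, was measured at 3.80 to 4.81, below the array medians on all arrays. Its differences ran from 0.08 to 0.54 with a mean of 0.31, and its second probe set, at 3.67 to 4.38, averaged 0.15 with 5 of 6 pairs above 0. No detection calls were used, so whether signals this low lie above background is not known.

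The mu class genes Gstm1 and Gstm2 were higher with iron, and Gstm5 was not. Gstm1, a main mu class enzyme of liver, gave 6.67, 7.20 and 7.14 in RAW_FAC and 6.54, 7.17 and 7.09 in FAC, against 6.27, 6.58 and 6.77 in RAW and 6.06, 6.58 and 6.96 in alone. Its mean difference was 0.43 ± 0.18 (SD, n = 6 pairs), with 0.13 to 0.63 as the range. The 4 probe sets of Gstm1 did not give 1 value: the others averaged 0.48, 0.18 and 0.15, with 6, 5 and 5 of 6 pairs above 0. Of the 4, 2, including the one that stands for the gene, carry a suffix by which the array design marks probes that may bind other transcripts. Gstm2 ran from 9.32 to 10.06 in RAW_FAC and from 9.33 to 9.85 in FAC, against 9.20 to 9.60 in RAW and 9.18 to 9.70 in alone, and its mean difference was 0.30 ± 0.21 (SD, n = 6 pairs). Unlike Gsta2, it had its smallest RAW_FAC minus RAW difference at replicate 1, at 0.08. Gstm5 ran from 9.71 to 10.19 in RAW_FAC and from 9.51 to 10.06 in FAC, against 9.59 to 10.14 in RAW and 9.62 to 9.99 in alone, and differed by 0.05 ± 0.09 (SD, n = 6 pairs).

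Gsto1, an omega class enzyme that reduces dehydroascorbate, was nearly constant at 13.60 to 13.86, with a mean iron difference of 0.05 ± 0.05 (SD, n = 6 pairs) and 5 of 6 pairs above 0. Its second probe set differed by 0.0030 on average, with 3 of 6 pairs above 0. Gstt1, a theta class enzyme that acts on small halogenated compounds, gave 3.66 to 4.02 on all arrays, and its pair differences ran from -0.25 to 0.31. Between FAC and alone, RAW_FAC and RAW, RAW and alone, and RAW_FAC and FAC, the ranges of the groups overlapped for all 10 genes. Overlap was not computed over all genes, so this only describes the members.

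**Figure D1:**
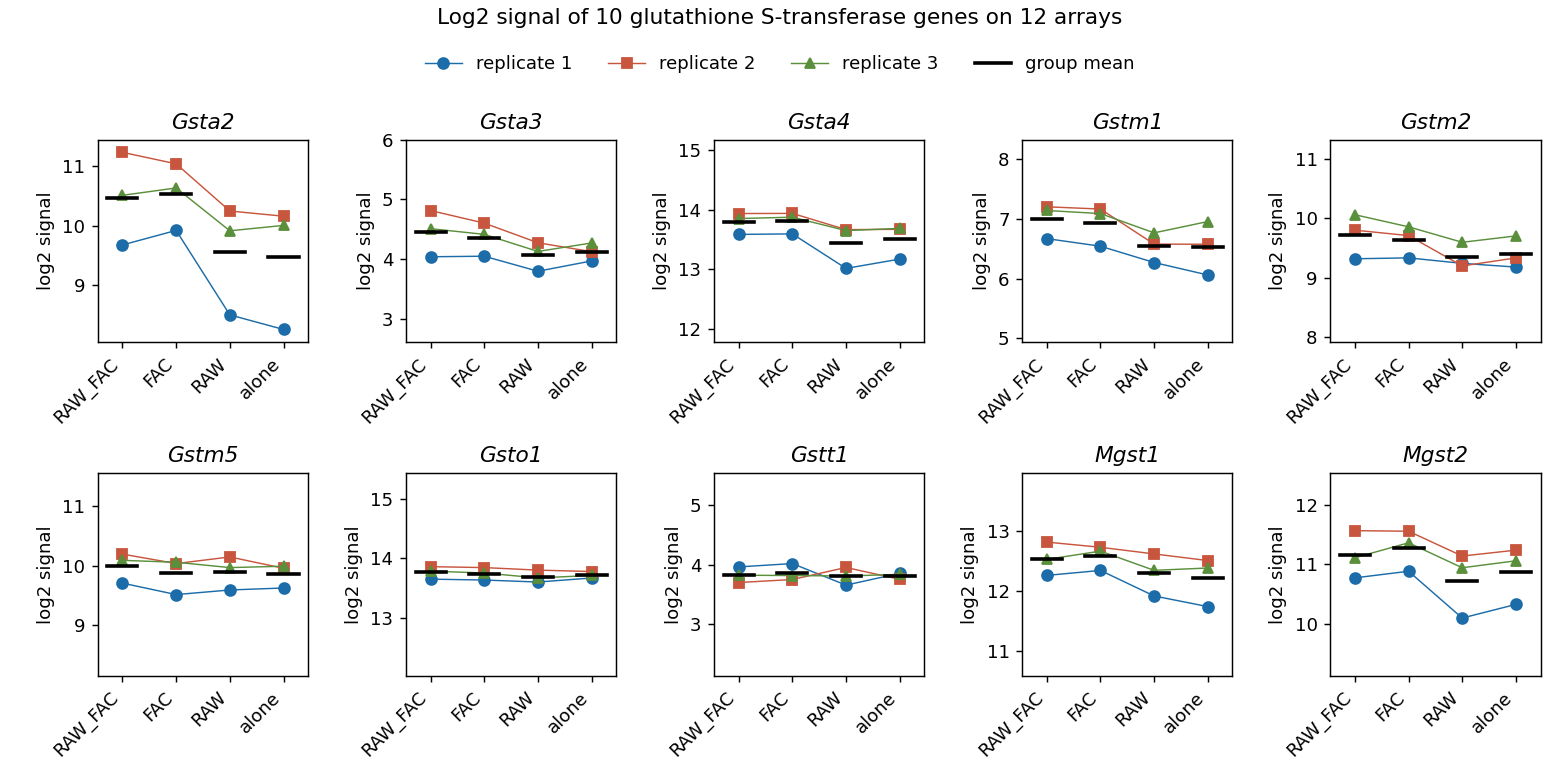
Log2 signal (vertical axes, 3 log2 units or more in each panel, with limits set per gene) of the 10 genes on the 12 arrays, by group, with lines joining arrays of equal replicate number and black bars for group means. In Gsta2, replicate 1 lay at 8.26 in alone and at 9.92 in FAC, and both RAW_FAC and FAC means stood above the RAW and alone means in the 7 genes that were higher with iron.

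Replicate number, which has more levels than iron or macrophages, held a larger share of the variation than either in all 10 genes. For Gstt1 that share was 11.1%, under the 26.9% of the median gene. In a split of each gene's sum of squares over the 12 arrays, replicate number held 61.7% for Gsta2, iron 33.5% and macrophages 0.0044%. Over the 7 genes higher with iron, the iron share was 22.8% to 37.6% and the replicate share 54.9% to 70.3%. Gstm5 and Gsto1 differed between replicate numbers but hardly between conditions, with replicate shares of 89.4% and 82.4%, and Gstt1 had 84.8% in neither. For the median gene of the array, replicate number held 26.9%, iron 5.69% and macrophages 3.90%. Replicate 1 was the lowest array in all 4 groups for 8 of the 10 genes, and for 6.03% of all genes. The log2 signal of the 3′ minus the 5′ control probe set of Actb, a measure of RNA integrity, was 0.32 to 0.42 over the 12 arrays and that of Gapdh -0.05 to 0.11. For Actb, replicate 1 lay at 0.36 to 0.41, within the range of the other arrays. For Gapdh the values followed replicate number in all 4 groups. They were -0.05 to -0.03 at replicate 2, -0.02 to 0.01 at replicate 1 and 0.06 to 0.11 at replicate 3. Whether this bears on the replicate shares was not tested.

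**Figure D2:**
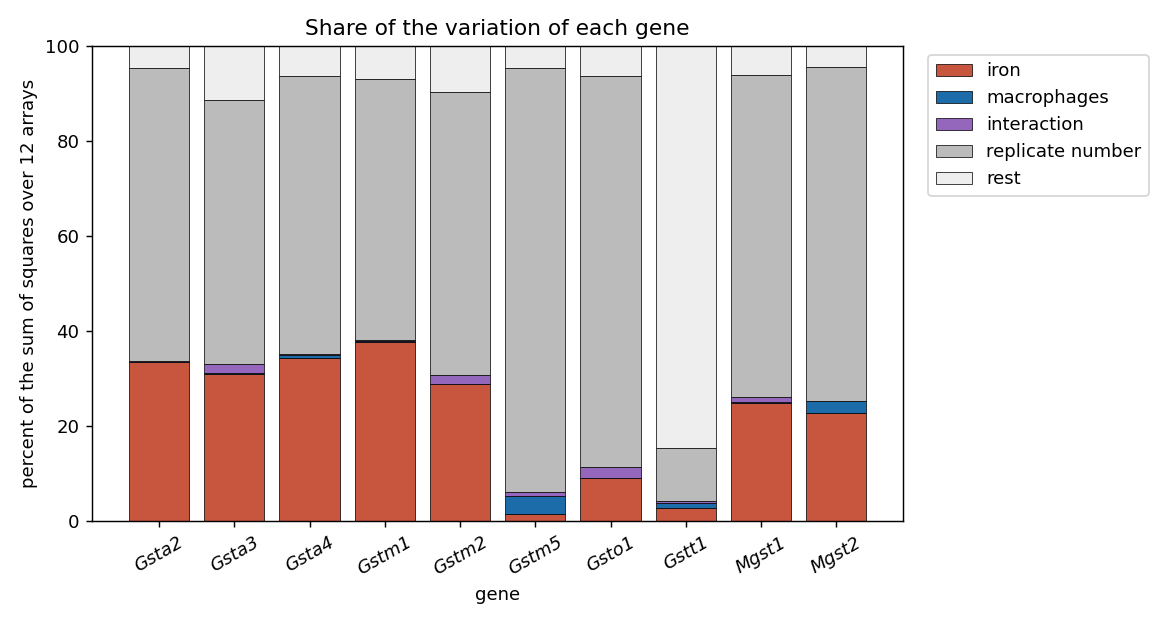
Share of the sum of squares over 12 arrays (vertical axis, percent) that iron, macrophages, their interaction, replicate number and the rest held for each of the 10 genes. Replicate number (grey) was the largest share for every gene but Gstt1, and the iron share (red) was 22.8% or more in the 7 genes higher with iron.

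With macrophages in the insert, no change of a member was detectable. None of the 10 genes passed in RAW against alone, in RAW_FAC against FAC, in the average of both or in the interaction, by limma's moderated test on all 12 arrays with Benjamini-Hochberg adjustment over 18194 genes (threshold 0.05, two-sided). The background was as low: 0.0% of all genes passed in RAW against alone, 0.0% in RAW_FAC against FAC, 0.011% in the average (2 genes, both higher) and 0.0% in the interaction. At an unadjusted p under 0.05 the counts over all genes were 693, 574, 717 and 540, and with the replicate number as a block 1115, 1020, 1274 and 790, of which 0, 0, 10 (0.055% of all genes, all higher) and 0 passed after adjustment. These comparisons were not used to choose the genes, but RAW and FAC are both set against the alone arrays.

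For Gsta2 the log2 difference of RAW minus alone was 0.24, 0.09 and -0.09 at replicates 1 to 3, and that of RAW_FAC minus FAC was -0.24, 0.19 and -0.12. The mean was 0.01, with 3 of 6 pairs above 0. The average macrophage difference had a 95% interval of -0.83 to 0.85 in the limma fit (adjusted p 1.00), and of -0.25 to 0.27 with the replicate block (adjusted p 0.991). Mgst2 had the largest mean difference, -0.13, from 10.10 to 11.57 with macrophages and 10.33 to 11.56 without them. It was lower with macrophages in 5 of 6 pairs, and with the block its interval was -0.27 to 0.01 (adjusted p 0.739). Gstm5 averaged 0.09, with a blocked interval of -0.01 to 0.18 (adjusted p 0.753).

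Gsta4 was lower with macrophages in 6 of 6 pairs, with differences of -0.16 to -0.0027, where 2.81% of all genes were lower and 3.09% higher in all pairs. Its average was -0.04, and it did not pass (adjusted p 0.926 with the block in limma). The remaining 6 genes averaged between -0.02 and 0.04, and the intervals without the block were narrowest for Gsto1, at -0.13 to 0.12. Averaged over 13 macrophage markers, the log2 signal was 5.58 to 5.61 over RAW_FAC arrays and 5.56 to 5.68 over FAC arrays, and 5.61 to 5.66 over RAW arrays and 5.53 to 5.61 over alone arrays.

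Whether the iron difference depended on the macrophages was tested as an interaction, (RAW_FAC minus RAW) minus (FAC minus alone). For Gsta2 it was -0.14 ± 0.78 (SE, 12 arrays) in limma, and ± 0.24 with the block, with a 95% interval of -0.66 to 0.39 (adjusted p 0.999). Its iron difference averaged 0.92 with macrophages and 1.06 without them. Gsta3 and Gstm2 both had 0.15, with blocked intervals of -0.14 to 0.45 and -0.13 to 0.43. The second, dimmer probe set of Gsta3 had 0.32 ± 0.12 (SE, blocked; limma adjusted p 1.00), with mean iron differences of 0.31 with macrophages and -0.0043 without them. Mgst1 had -0.13, with a blocked interval of -0.38 to 0.12. The intervals are wide beside the members' iron differences, so it is not shown that these were alike with and without macrophages.

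**Figure D3:**
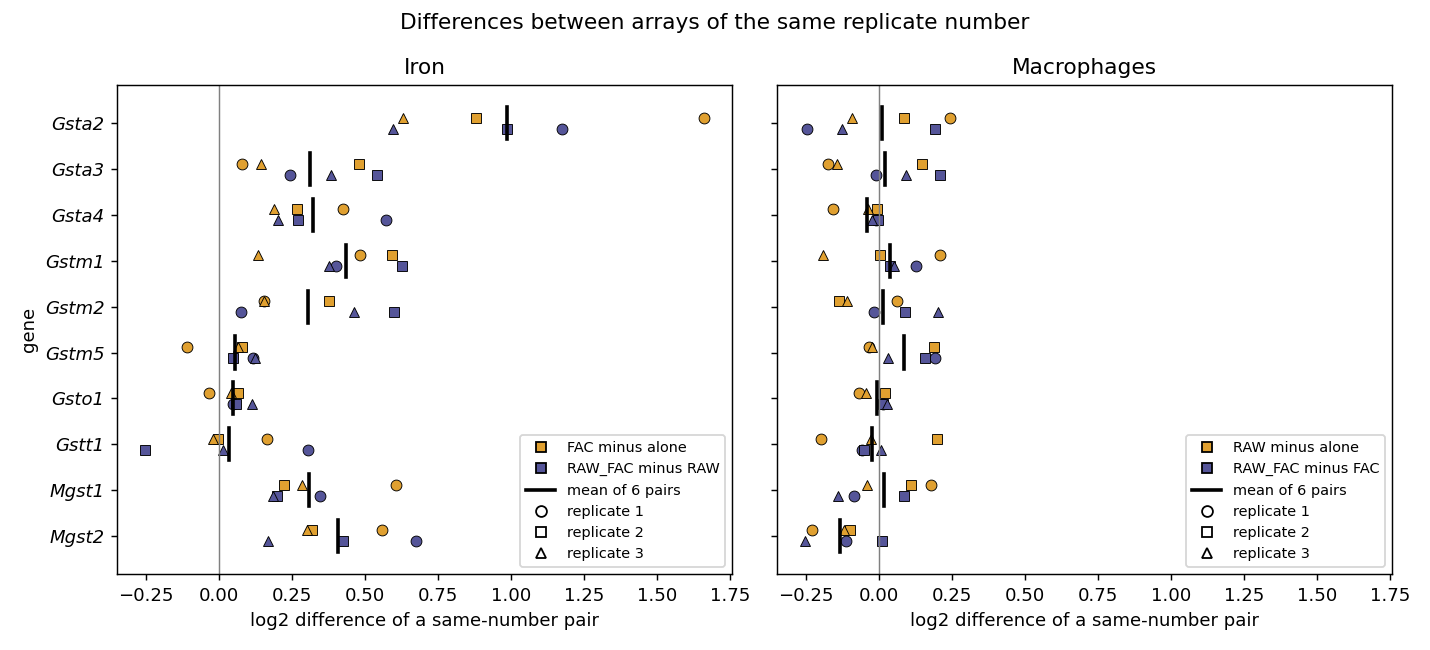
Log2 difference between arrays of the same replicate number (horizontal axes) for iron (left) and macrophages (right), with 6 pairs per gene marked by replicate (shape) and by setting (colour) and a bar at their mean. All 6 iron pairs lay above 0 for 7 genes, up to 1.66 for Gsta2, while the macrophage pairs of Gsta2 ran from -0.24 to 0.24.

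The genes of the family most like Gsta2 over the 12 arrays were Mgst1 (Pearson r 0.99), Gsta4 and Mgst2 (both 0.97), Gstm1 (0.91) and Gsta3 (0.89). After the mean of each replicate number was removed these were 0.97, 0.95, 0.93, 0.91 and 0.74. Gsto1 and Gstm5 had r of 0.82 and 0.79 to Gsta2, and 0.50 and 0.25 once replicate means were removed. Gstm2 had 0.69 and 0.71, and Gstt1 -0.07 and 0.32. The arrays share the iron and replicate groups, so these values describe the same grouping and are given with no test. Of 18193 genes compared with Gsta2, 75 genes, family members included, had an r of at least 0.9. The 5 nearest outside the family were Creg1, a glycoprotein of the endosomal and lysosomal system, and Rassf6, a Ras association domain protein (both 0.98), Abcc4, an export pump, and Hspa5, the main chaperone of the endoplasmic reticulum (both 0.97), and the serpin Serpinb1b (0.96). Their mean iron differences were 0.31, 0.25, 0.43, 0.27 and 0.54, all smaller than the 0.99 of Gsta2.

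The other genes of the glutathione S-transferase families that had a probe set of their own had iron differences around 0. Of 22 listed, 19 were found in this way, and 7 of these had a mean iron difference above 0. Of the 19, 6 had means below the array medians, and whether signals this low lie above background is not known. Gsta1 is not among the 19, and the probe set it shares with Gsta2 and Gm3776 averaged 0.58 with iron. The median of the 19 was -0.03, beside 0.31 for the 10 members and -0.0019 for all genes. The members were chosen with iron differences known, so their median is a description and is not read against that of the 19. None of the 19 passed in the average of both iron comparisons, with the replicate block (background 0.638% of all genes higher and 0.154% lower) or without it (0.0% and 0.0055%). Gstp1, the pi class enzyme, was the 1 gene of the 19 higher in 6 of 6 pairs, at 0.17 (range 0.08 to 0.29), a share near the 4.14% of all genes. Mgst3, another microsomal enzyme, averaged -0.03 with iron and -0.15 with macrophages.

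Several genes that supply glutathione were higher with iron in the fit with the replicate block. The 20 genes of glutathione synthesis and recycling found on the array had a median iron difference of 0.15, with 8 higher and 2 lower in all 6 pairs. In limma, 8 of the 20 passed in the average of both iron comparisons with the block, all higher, where 0.638% of all genes were higher and 0.154% lower, and 0 of 20 passed without it, where 0.0% of all genes were higher and 0.0055% lower. The list was chosen with earlier results of these data known, so its count is a description and is not read against those shares. Slc7a11, the light chain of the cystine transporter, ran from 6.33 to 8.65 over the 12 arrays and was higher by 0.89 ± 0.08 (SE, blocked; limma adjusted p 0.00134). Gclc, the catalytic subunit of the enzyme that starts glutathione synthesis, was higher by 0.42 ± 0.04 (SE; limma adjusted p 0.0016) and its partner Gclm by 0.32. Idh1, a source of NADPH, was higher by 0.46, and Cth, which makes cysteine, by 0.40. Gsr, which regenerates glutathione, averaged 0.15 with 5 of 6 pairs above 0 and did not pass. Others went the other way, and are named after their values were seen. Gss, glutathione synthetase, averaged -0.10 with 2 of 6 pairs above 0, and the 2 genes lower in all pairs were Cbs at -0.16 and Glrx3 at -0.13. The count fell to 4 without replicate 2 of RAW_FAC, replicate 2 of RAW, replicate 1 of FAC or replicate 2 of FAC, and to 5 without replicate 3 of RAW, replicate 3 of FAC or replicate 2 of alone. Arrays of one number and iron condition were more alike (median r 0.431) than arrays of one number across iron conditions (0.315), which the block does not model, so blocked errors with iron may be too small.

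With the block, Slc7a11 also passed in each iron comparison on its own, by 0.83 in FAC against alone (limma adjusted p 0.0436) and by 0.95 in RAW_FAC against RAW (limma adjusted p 0.0145). The background was 0.022% of genes higher in FAC against alone and 0.0605% in RAW_FAC against RAW, and 0.011% and 0.0165% lower. Gclc passed in RAW_FAC against RAW, at 0.48 (limma adjusted p 0.0145). With both agents, RAW_FAC against alone, Slc7a11 was higher by 1.10 (limma adjusted p 0.00824), where 0.143% of genes were higher and 0.0605% lower. These calls depended on which arrays were kept. With the block and 1 array left out, Slc7a11 passed in FAC against alone only without replicate 3 of FAC. It was lost in RAW_FAC against RAW without replicates 2 or 3 of RAW_FAC or replicates 1 or 2 of RAW, and in RAW_FAC against alone without replicates 2 or 3 of RAW_FAC or replicate 2 of alone. Gclc was lost in RAW_FAC against RAW without any array of RAW_FAC or replicates 1 or 2 of RAW. In the average of both iron comparisons, Slc7a11, Gclc, Gclm and Idh1 passed in all 12 such fits, and Cth in 5.

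The lists that follow were also chosen with earlier results of these data known, so their counts are not read against the shares of all genes. The 16 other detoxifying NRF2 targets had a median iron difference of 0.16. Of them, 5 passed with the block in the average of both iron comparisons, all higher, beside 0.638% of all genes, and 0 without it, beside 0.0%. They included Aldh3a1, an aldehyde dehydrogenase, at 0.71, Nqo1, a quinone reductase, at 0.54, Hmox1, heme oxygenase, at 0.49, and Cbr3, a carbonyl reductase, at 0.41. The count fell to 3 without replicate 2 of RAW_FAC, replicate 1 of FAC or replicate 2 of FAC. Aldh3a1 and Nqo1 passed with the block in all 12 fits without 1 array, and Hmox1 and Cbr3 in 7 each. Of 19 genes of conjugate export and mercapturate formation, the pumps Abcc4 at 0.43 and Abcc1 at 0.21 passed with the block, beside 0.638% of all genes, and 0 of 19 passed without it. Abcc4 passed with the block in all 12 fits without 1 array, and Abcc1 in none of them. The export list had a median iron difference of 0.02, the 7 glutathione peroxidase genes -0.02 and the 19 regulators 0.06, and no peroxidase or regulator gene passed. Among the regulators, Nfe2l2, which encodes NRF2, averaged 0.06 with 5 of 6 pairs above 0, and Keap1, its inhibitor, 0.09 with 6 of 6. In all, 7 of the 19 regulators were higher in 6 of 6 pairs and 1 lower, beside 4.14% and 4.01% of all genes. The 3 largest of the 7, picked after their values were seen, were Mafg at 0.22 and Nfe2l1 at 0.22, a partner and a relative of NRF2, and Bach1, a repressor at the same elements, at 0.21. Ahr, the gene of the aryl hydrocarbon receptor, had the largest mean of the 19, at 0.25, with 5 of 6 pairs above 0. With macrophages Ahr averaged -0.19 and was lower in 6 of 6 pairs, as were Nfe2l2 at -0.10 and Keap1 at -0.06. In all, 3 of the 19 were lower in all pairs and 1 higher, beside 2.81% and 3.09% of all genes. In the list of glutathione synthesis, 3 of 20 were lower with macrophages in all pairs and 1 higher. No gene of these lists passed in a macrophage comparison.

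The 12 hepatocyte markers averaged 6.38 to 6.52 over RAW_FAC arrays and 6.38 to 6.56 over FAC arrays, against 6.30 to 6.48 over RAW arrays and 6.30 to 6.46 over alone arrays, and overlapped. Of them, 1 was higher and 1 lower with iron in 6 of 6 pairs. Afp was higher, by 0.45, and passed with the block but not without it, nor with the block in 5 of 12 fits without 1 array (replicate 3 of RAW_FAC, replicate 2 of RAW, replicates 1 and 2 of FAC, and replicate 2 of alone). Hnf4a averaged -0.09, with a range of -0.21 to -0.05, and did not pass. The 5 biliary markers averaged 7.64 to 7.70 over RAW_FAC arrays and 7.60 to 7.77 over FAC arrays, against 7.54 to 7.85 over RAW arrays and 7.66 to 7.77 over alone arrays. The part of such differences in the family's values was not tested.

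**Figure D4:**
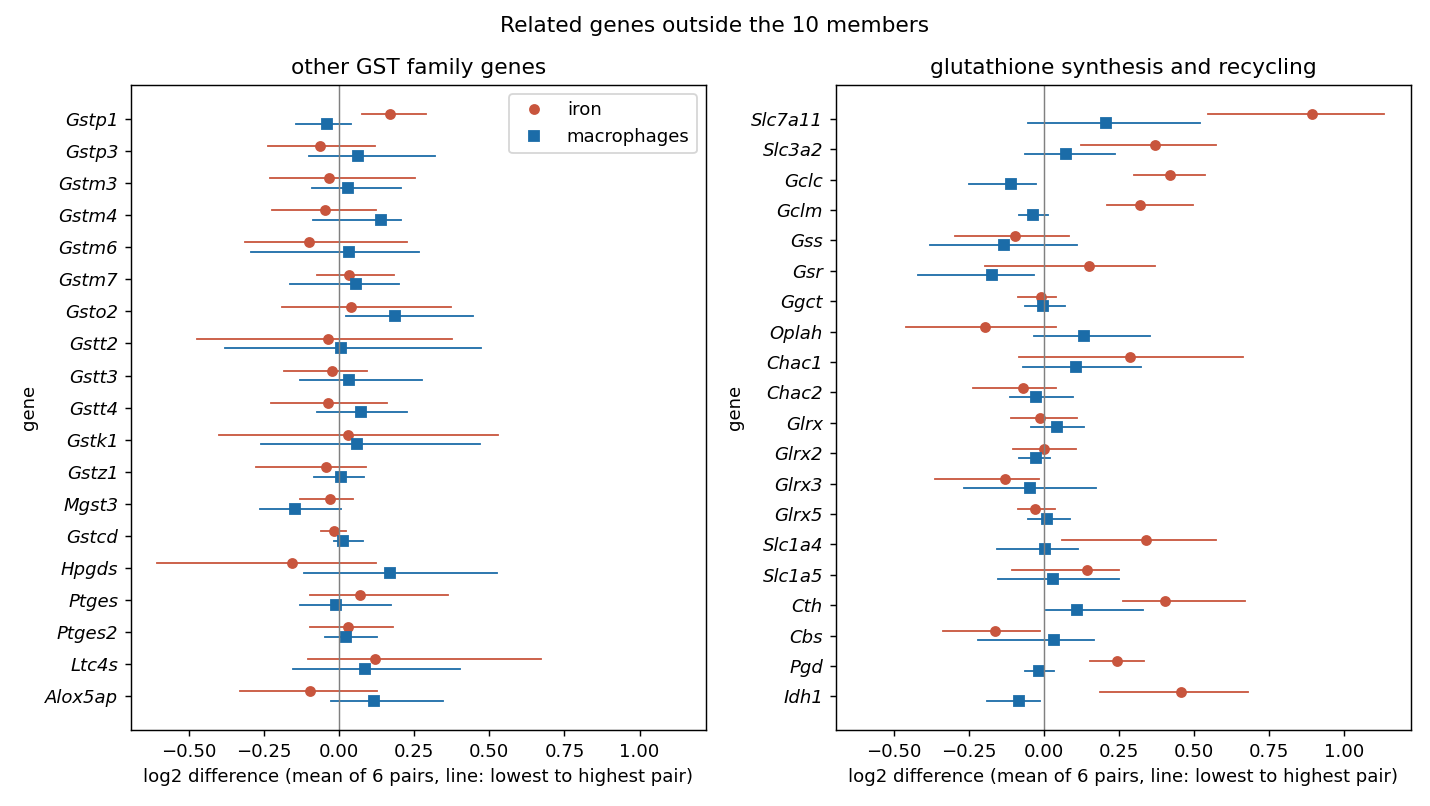
Mean log2 difference of 6 same-number pairs (horizontal axes, lines from the lowest to the highest pair) for iron (red circles) and macrophages (blue squares), in the other glutathione S-transferase family genes (left) and the genes of glutathione synthesis and recycling (right). The iron mean of Slc7a11 was 0.89, and that of Gstp1, the highest of the 19 family genes shown, was 0.17.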

How the data were processed

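Total RNA from 12 samples was measured on Affymetrix mouse arrays. The authors deposited log2 signals, made with RMA in affy, per the submitters' processing notes, with versions not given in the sources used here. RMA sets all arrays to a common distribution (array medians 5.63 to 5.68), so a shift of all genes would not show. Of 45101 probe sets, 34958 named 1 gene by the platform annotation, 932 several and 9211 none, and only the first kind was tested. For 9012 genes with more than 1 probe set the one with the highest mean was kept, which gave 18194 genes.

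A model with 1 mean per group was fitted with limma 3.58.1 in R 4.3.3 (two-sided, Benjamini-Hochberg adjusted p under 0.05, 95% intervals). Of genes drawn with a log2 change of 0.5 in simulated data with the layout of the average of macrophages, 94% were recovered without and 96% with the replicate block. Over the 18194 genes of those data, 4 and 17 unchanged genes were called. The simulated errors were independent and the changed genes were drawn from the whole array, so these shares do not hold for the members. Without the block, the SE of Gsta2 in the average of macrophages was 0.39.

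Whether replicate numbers from the titles pair the arrays was checked on residuals from group means: the 18 same-number pairs correlated at 0.26 to 0.53 and the 36 others at -0.35 to -0.01. The titles do not say what the numbers stand for.

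The family members and the gene lists were chosen with earlier results of these data known. Besides the members, the text names list genes past the threshold, up to 4 per list and comparison by size of change, together with Gstp1, Mgst3, Gclc, Gclm, Slc7a11, Gsr, Nqo1, Nfe2l2, Keap1 and Abcc1, and the 5 genes most like Gsta2. Alternatives were other scalings, probe set choices, filters, moderation, the groups compared alone, the replicate block and each array left out. Combinations with the block, and means without replicate 1, were chosen after seeing the data. Fibroblast and endothelial markers, 11 and 6 genes, averaged 4.83 to 4.95 and 4.64 to 4.88 per array. Tables were made with pandas 2.3.3 and numpy 2.4.6 under Python 3.11.15, and plots with matplotlib 3.10.9.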

Additional observations from a re-analysis of the deposited data

How the results depend on the processing

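No member passed in a macrophage comparison or in the interaction under the alternatives run, which were 8 settings, among them the replicate block, and each of the 12 arrays left out, with and without the block. The filter on dim genes left Gsta3, Gstm1 and Gstt1 out, and the fit to the compared arrays alone was run only for RAW against alone and RAW_FAC against FAC. Where an array was left out and no block was used, the groups held different replicate numbers. The log2 iron difference of Gsta2 then ran from 0.45 to 1.40 in FAC against alone, 0.39 to 1.32 in RAW_FAC against RAW and 0.68 to 1.19 in their average. With the block it ran from 0.85 to 1.24, 0.83 to 1.06 and 0.88 to 1.08.

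Counts over all 18194 genes moved with the replicate block. With it the average of macrophages had 10 genes higher, against 2 without it, and the average of iron 116 higher and 28 lower, against 0 and 1. FAC against alone had 4 higher and 2 lower with the block, RAW_FAC against RAW 11 and 3, and RAW_FAC against alone 26 and 11, against 0 each without it. At an unadjusted p under 0.05 the fit without the block had 551, 1038 and 887 genes in these 3 comparisons. With the block the lists of glutathione synthesis, other NRF2 targets and export had 8, 5 and 2 genes higher in the average of iron, against 0 each. With 1 array left out as well, FAC against alone had 0 to 3 genes higher and 0 to 1 lower, RAW_FAC against RAW 0 to 15 and 0 to 5, RAW_FAC against alone 0 to 29 and 0 to 14, and the average of macrophages 0 to 24 and 0 to 4. RAW against alone had 0 to 2 higher and RAW_FAC against FAC 0 to 3. The average of iron had 37 to 88 genes higher and 7 to 23 lower, and these lists 4 to 8, 3 to 5 and 1 (6 genes of synthesis without replicate 3 of RAW_FAC, replicate 1 of RAW or replicate 3 of alone).

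Without the block, the average of macrophages had 1 gene higher with every probe set fitted and with moderation by trend and robust. The average of iron had 1 gene higher after centring on the median, with genes above the median gene only and with trend and robust moderation. Each time this was a gene of the glutathione synthesis list. The average of iron had 0 lower with every probe set fitted, with the mean of probe sets and with trend and robust moderation. With 1 array left out, the average of macrophages had 0 to 12 genes higher, RAW against alone and RAW_FAC against FAC 0 to 1, and RAW_FAC against alone 0 to 1, and all 4 were highest without replicate 1 of RAW. The average of iron had 0 to 1 higher, where the 1 gene was among the other NRF2 targets, and 0 to 1 lower. The cause was not tested. The number of arrays limits the precision, and the 2 members below the array medians, Gsta3 and Gstt1, have no detection call here.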
